A study of Gallus gallus with 8 samples.

Results

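Free caudal intervertebral discs (IVDs) are the discs of the chicken tail that stay unfused, in contrast to the discs between the vertebrae of the pygostyle, which fuse. The libraries described here are the 4 of permanent (free) IVDs in a series of 8, chosen by the tissue that their sample titles name. The other 4 libraries are of degrading pygostyle IVDs and were not compared with them. Free IVDs were taken from chickens (*Gallus gallus*) at an age of 10 wk, and each of replicates 1 to 4 is a single RNAseq library of polyA-selected mRNA. The breed is Tetra in the study's methods and white leghorn in the sample labels. The tissue of the series came from 8 chickens, and neither the sex of the birds nor whether both kinds of disc came from the same birds is given in the sources used here.

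A disc joins neighboring vertebrae and bears load through its extracellular matrix. In the outer annulus fibrosus, cells related to those of tendon and ligament lay down type I collagen in layers. In cartilage, chondrocytes make type II collagen, which holds the shape of the tissue, and aggrecan, a proteoglycan whose sulfated sugar chains draw in water. Chondrocytes near bone can enlarge into hypertrophic chondrocytes, which make type X collagen and mineralize their matrix. Discs have few or no blood vessels of their own, and their cells draw much of their energy from glycolysis.

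The counts of the 4 libraries summed to 18417470, 15842385, 13214205 and 12356953 in replicates 1 to 4, over 24154 genes. Levels of different genes are given in TPM, the counts of a gene divided by its length and scaled to a fixed total per library, with the mean and SD over the 4 libraries. Levels of a single gene in different libraries are given in CPM or, for some genes, in TPM. CPM is the counts of a gene brought to a common depth with TMM factors. TPM is not scaled with these factors, so the order of the libraries can differ. *COL2A1*, for example, was highest in replicate 3 by TPM and in replicate 2 by CPM. Each pair of libraries differed by more than sampling noise, with a chi-square of 39.3 to 170 per degree of freedom, so none is a second copy of another. With a single group there is no contrast to test, and all values below are descriptions. In bulk tissue, fewer cells of a type and less RNA per cell cannot be told apart.

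A small number of genes held much of the RNA of the free IVDs. Of the genes in the table, 19206 had at least 1 count and 11234 reached 1 TPM in every library. The 4 highest genes held 23.0 ± 3.48% of all TPM (SD, n = 4), the 10 highest 31.1 ± 3.69% and the 30 highest 41.6 ± 3.02%. The 74 highest genes together reached 50% of all TPM. Of the 30 highest genes, 16 were in the lists of matrix genes, 3 were hemoglobins, and 6 share exon sequence with another gene.

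*SPARC*, which encodes osteonectin, a secreted protein that binds collagen and calcium, was the highest gene by TPM (chromosome 13 of GRCg6a, from 13624064 to 13631175). It had 80952, 78687, 71817 and 77612 TPM in replicates 1 to 4 (77267 ± 3891 TPM). The 4 libraries were close to each other for this gene. The length listed for *SPARC* is 1006 bases, and by mean CPM it ranked 4, behind the 3 chains of the main collagens. *COL2A1*, the chain of type II collagen, followed with 45624, 68736, 77975 and 67896 TPM, lowest in replicate 1. *COL1A1* and *COL1A2*, the chains of type I collagen, averaged 47216 ± 18978 and 40530 ± 13706 TPM.

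Next among matrix genes came *DCN* with 18275 ± 3213 TPM, decorin, a small proteoglycan on collagen fibrils, and *COMP* with 12636 ± 1948 TPM, a cartilage and tendon protein that links collagen fibrils. *CHAD*, chondroadherin, a protein to which chondrocytes attach, averaged 12160 ± 3528 TPM. *COL3A1*, the type III collagen chain of elastic connective tissue, had 9969 ± 2661 TPM. *FMOD*, fibromodulin, had 7504 ± 401 TPM and *CLEC3A*, a lectin of cartilage, 7151 ± 1934 TPM. All of these are secreted matrix proteins.

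Among the 30 highest genes that are not matrix genes, *EXFABP* stood out. It encodes a chicken lipocalin that binds fatty acids and bacterial siderophores and that hypertrophic chondrocytes and inflamed tissue are known to secrete. It had 6058, 12731, 7513 and 7743 TPM, with replicate 2 above the others. *HBA1*, *HBBA* and *HBM*, globin chains of red blood cells, averaged 13620 ± 7284, 12439 ± 6755 and 4603 ± 2574 TPM. *EEF1A1*, a translation elongation factor that overlaps another gene, averaged 5297 ± 298 TPM. *LY86*, which encodes MD-1, a partner of a Toll-like receptor homolog, averaged 4089 ± 282 TPM, *RPLP1*, a protein of the ribosomal stalk, 3192 ± 420 TPM and *CST3*, the protease inhibitor cystatin C, which overlaps a microRNA gene, 2859 ± 795 TPM.

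A few of the 30 highest places depend on how genes are drawn in the annotation. *EYY68_mgt12*, a mitochondrial tRNA gene of 75 bases, averaged 10006 ± 1686 TPM but only 271 CPM. *LOC112530942*, *LOC101750014* and *ARIH1_1* overlap in exon sequence and had 12092 ± 2781, 6023 ± 1494 and 4831 ± 1204 TPM. *LOC112533599*, listed as an rRNA gene in the RefSeq table, had 4441 ± 867 TPM.

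**Figure D1:**
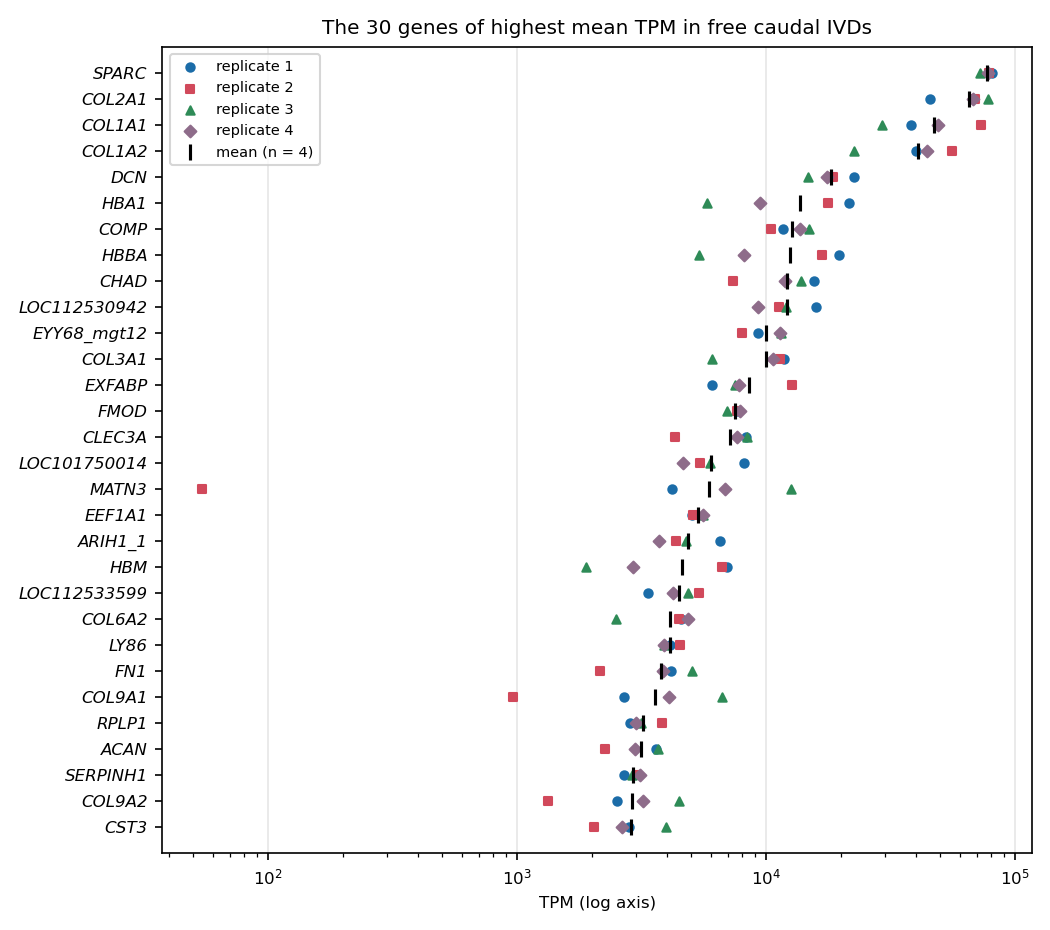
TPM (log axis) of the 30 genes of highest mean TPM in free caudal IVDs, with a point for each of replicates 1 to 4 and a black bar for the mean. *SPARC*, *COL2A1*, *COL1A1* and *COL1A2* lead, and *MATN3* has the widest spread, from 54.1 TPM in replicate 2 to 12573 TPM in replicate 3.

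Matrix genes as a whole (212 genes in 10 lists) held 35.8, 39.98, 36.4 and 39.4% of all TPM in replicates 1 to 4, a mean of 37.9 ± 2.13%. Without *SPARC*, the matrix genes held 30.2 ± 2.10%. Collagens alone (39 genes) held 18.8 ± 3.21%. The fibrillar collagens, which form the rope-like fibers, had 14.1, 21.4, 14.2 and 17.8%, and the remaining collagens 1.71, 1.42, 2.35 and 2.09%. Replicate 2 was thus highest in fibrillar and lowest in the remaining collagens, and replicate 3 was highest in the remaining collagens. Of all collagen genes, 8 fibrillar and 18 other chains reached 1 TPM in every library.

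The balance between type II and type I collagen varied. The ratio of *COL2A1* to *COL1A1* TPM was 1.20, 0.942, 2.69 and 1.39 in replicates 1 to 4, so that *COL1A1* exceeded *COL2A1* in replicate 2 alone. *COL1A2* was below *COL2A1* in every library. The main chains of type I collagen stayed closer together, with ratios of *COL1A1* to *COL1A2* TPM of 0.952, 1.31, 1.29 and 1.11. *COL11A1*, which sets the width of cartilage fibrils and overlaps another gene, averaged 2580 ± 1094 TPM. *COL5A1*, which does so in type I collagen fibrils, averaged 1921 ± 508 TPM.

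The chains of type VI and type IX collagen led the remaining collagens. Type VI collagen surrounds cells of cartilage and tendon, and *COL6A2*, *COL6A1* and *COL6A3* (which overlaps another gene) averaged 4091 ± 1077, 2354 ± 643 and 1031 ± 313 TPM. Each was lowest in replicate 3. Type IX collagen coats type II fibrils, and *COL9A1*, *COL9A2* and *COL9A3* (which overlaps *TCFL5*) averaged 3582 ± 2397, 2879 ± 1308 and 1968 ± 1102 TPM. *COL9A1*, which overlaps *COL19A1*, had 2672, 966, 6638 and 4053 TPM, and the type IX chains were each lowest in replicate 2 and highest in replicate 3.

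Proteoglycan genes were led by small members. The small leucine-rich proteoglycans, which coat collagen fibrils, held 4.44 ± 0.546% of TPM, of which *DCN*, *CHAD* and *FMOD* made up 85.4%. *LUM* (lumican) and *PRELP* followed with 2591 ± 476 and 1825 ± 310 TPM. Large proteoglycans with their hyaluronan partners held 0.509 ± 0.0900%. *ACAN* (aggrecan) had 3604, 2260, 3659 and 2980 TPM, *HAPLN1*, which links aggrecan to hyaluronan, averaged 1079 ± 258 TPM, and *HSPG2*, perlecan, 551 ± 58.0 TPM. *VCAN*, versican, the large proteoglycan of soft connective tissue, was far below aggrecan with 45.3 ± 16.8 TPM.

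Other matrix proteins came from cartilage and from fibrous tissue. Non-collagen cartilage proteins held 2.25, 1.5004, 3.58 and 2.82% of TPM, lowest in replicate 2 and highest in replicate 3. *COMP*, *MATN3* and *CNMD* (chondromodulin, an inhibitor of vessel growth) made up 79.6% of that sum. Matricellular and adhesive glycoproteins held 8.89 ± 0.312%, and 1.17 ± 0.264% without *SPARC*. *FN1* (fibronectin) had 3790 ± 1206 TPM, *TGFBI* 1704 ± 484 TPM and *CTGF*, a matricellular protein induced by TGF-beta, 1178 ± 736 TPM. Elastic fiber and microfibril proteins held 0.184 ± 0.0506%, led by *ELN* (elastin) with 601 ± 255 TPM.

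The enzymes that build and cut this matrix were also well represented. Genes of collagen modification and cross-linking held 1.43 ± 0.0843% of TPM. They were led by *SERPINH1*, the collagen chaperone HSP47, with 2926 ± 186 TPM, *PLOD2*, a lysyl hydroxylase, with 2326 ± 152 TPM, and *P4HB*, a subunit of prolyl 4-hydroxylase, with 1242 ± 77.1 TPM. The 4 libraries lay close together for these genes. Glycosaminoglycan synthesis and sulfation held 0.343 ± 0.0298%, with *XYLT1*, which starts the sugar chains, at 693 ± 109 TPM and *PAPSS1*, which makes the sulfate donor, at 497 ± 93.8 TPM. Proteases with their inhibitors held 0.762 ± 0.0901%. *HTRA1*, a serine protease, averaged 1916 ± 451 TPM, *TIMP2*, an inhibitor of metalloproteases, 1790 ± 216 TPM and *MMP2*, a gelatinase, 952 ± 377 TPM.

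**Figure D2:**
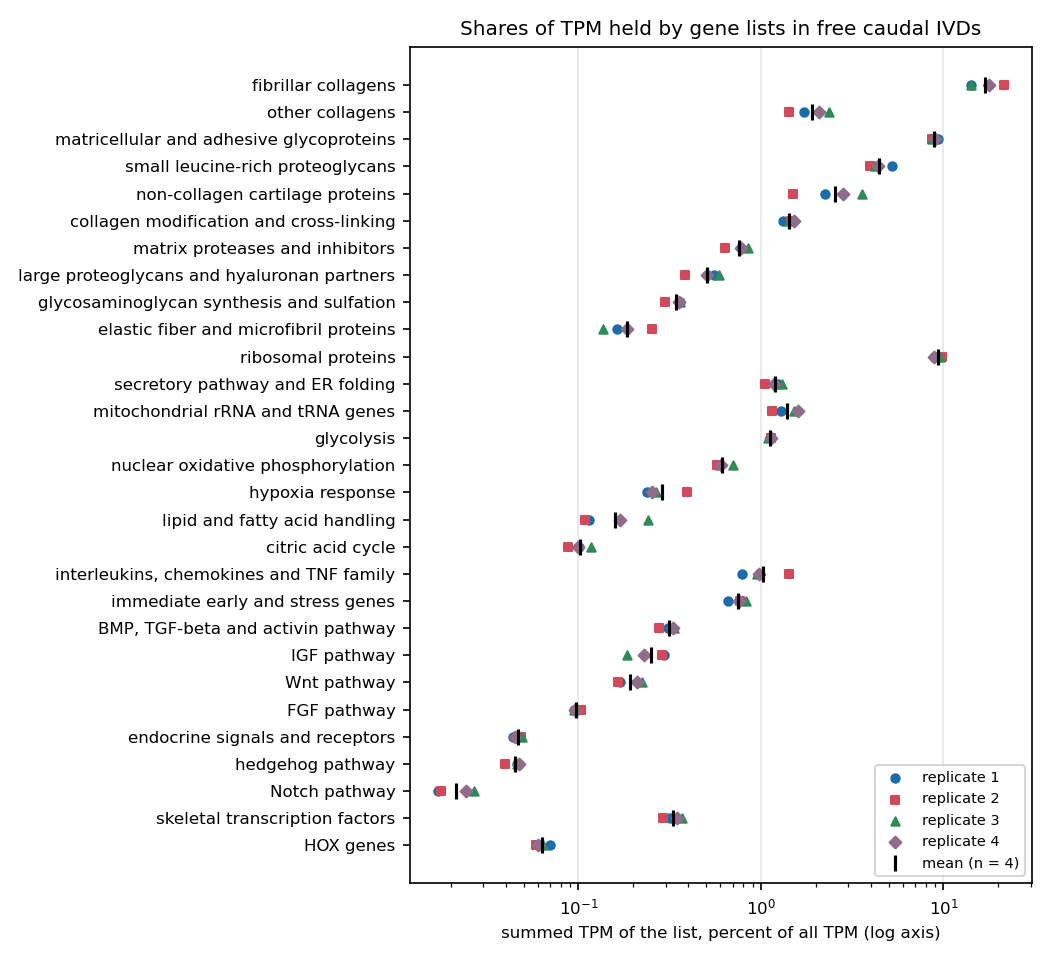
Summed TPM of each gene list as a percent of all TPM (log axis), with a point for each of replicates 1 to 4 and a black bar for the mean. Fibrillar collagens (16.9%), ribosomal proteins (9.30%) and matricellular glycoproteins (8.89%) hold most, and the points for glycolysis lie on top of each other near 1.12%.

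Genes of protein synthesis held the next largest share. Ribosomal proteins (77 genes) held 8.89, 9.83, 9.56 and 8.91% of TPM, led by *RPLP1*, *RPS3A* and *RPS6* with 3192 ± 420, 2775 ± 175 and 2349 ± 792 TPM. Genes of the secretory pathway and of folding in the endoplasmic reticulum (49 genes, each at 1 TPM or more in every library) held 1.19 ± 0.104%. *ATF4*, a transcription factor of the amino acid response, led this list with 1106 ± 73.5 TPM, before *CALR* (calreticulin) with 669 ± 103 TPM and *HSPA5* (the chaperone BiP) with 632 ± 114 TPM.

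Glycolysis exceeded the nuclear genes of oxidative phosphorylation in summed TPM. Glycolytic genes held 1.12, 1.14, 1.09 and 1.13% in replicates 1 to 4, and the 75 nuclear genes of oxidative phosphorylation 0.574, 0.572, 0.6999 and 0.607%. The ranges of the lists do not overlap. *GAPDH* had 2459, 2548, 3098 and 2927 TPM, *ENO1* (enolase) averaged 2177 ± 63.2 TPM and *LDHA*, which turns pyruvate into lactate and overlaps *TSG101*, 1458 ± 247 TPM. Among the nuclear genes of oxidative phosphorylation, *ATP5E*, a subunit of ATP synthase, was highest with 253 ± 19.3 TPM. The citric acid cycle held 0.101 ± 0.0120%, led by *MDH2* with 138 ± 27.7 TPM.

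Mitochondrial mRNAs were not analysed here, since the mitochondrial genes of the table are 24 genes for rRNA and tRNA. They held 1.38 ± 0.208% of TPM, most of it from *EYY68_mgt12*. All metabolic lists together (194 genes) held 3.64 ± 0.262%, and 2.29% when the mitochondrial genes were left out of the total. Genes of lipid handling held 0.115, 0.109, 0.242 and 0.169%, led by *APOA1*, the main apolipoprotein of high-density lipoprotein, with 113, 150, 1086 and 518 TPM. *APOA1* was thus high in replicates 3 and 4.

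Genes that respond to low oxygen were expressed in every library and were highest in replicate 2. This list held 0.238, 0.393, 0.264 and 0.254% of TPM. *DDIT4*, an inhibitor of mTOR signaling that overlaps another gene, averaged 421 ± 168 TPM and *VEGFA*, the growth factor of blood vessels, 372 ± 146 TPM. *STC2* (stanniocalcin 2) had 267, 813, 132 and 247 CPM and *CA9*, a carbonic anhydrase on the cell surface, 61.0, 229, 45.3 and 56.4 CPM. In both, replicate 2 was the highest library.

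Signaling genes (283 genes in the lists) held 2.75 ± 0.290% of TPM, and 1.90 ± 0.0775% without *EXFABP*, which is listed with the cytokines. *EXFABP* alone was 82.5% of the summed mean TPM of interleukins, chemokines and the TNF family. The next members were *CXCL14*, a chemokine, with 326 ± 57.8 TPM, *IL17D* with 323 ± 135 TPM and *TNFRSF11B*, osteoprotegerin, the decoy receptor that restrains osteoclasts, with 319 ± 72.1 TPM. Immediate early and stress genes held 0.753 ± 0.0720%, led by *FOS* (1303 ± 366 TPM, overlapping another gene), *DUSP1* (978 ± 67.3 TPM, overlapping a microRNA gene) and *JUN* (895 ± 97.9 TPM).

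Of the developmental pathways, genes of BMP, TGF-beta and activin signaling held 0.312 ± 0.0270% of TPM. *ID1* and *ID3*, targets of BMP signaling, had 376 ± 82.2 and 364 ± 42.1 TPM, *TWSG1*, an extracellular modulator of BMPs, 322 ± 34.3 TPM and *INHBA*, the activin A subunit, 162 ± 64.3 TPM. The Wnt pathway held 0.191 ± 0.0282% and was led by secreted antagonists. *WIF1* had 543, 237, 705 and 525 TPM and *FRZB* 265, 604, 507 and 564 TPM. *FZD9*, a Wnt receptor, averaged 331 ± 46.9 TPM. Of 49 genes of the Wnt list, 13 with counts stayed under 1 TPM in every library.

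Of the remaining pathways, all but the IGF genes were below the Wnt pathway. FGF genes held 0.0972 ± 0.00444% of TPM, of which *FGFR1* was 47.4% with 460 ± 80.7 TPM. IGF genes held 0.249 ± 0.0525%, and 0.0211 ± 0.00582% without *HTRA1* and *STC2*, which also stand in other lists. Hedgehog genes held 0.0448 ± 0.00341%, led by *SMO*, the transducer of the signal, with 112 ± 13.3 TPM. Notch genes held 0.0214 ± 0.00482%, led by *HES1*, a target of Notch, with 50.1 ± 8.11 TPM. Endocrine genes held 0.0465 ± 0.00271%, led by *TSC22D3*, which glucocorticoids induce, with 111 ± 26.3 TPM.

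Skeletal transcription factors held 0.331 ± 0.0351% of TPM, led by a gene of the axial skeleton. *NKX3-2*, a repressor needed for cartilage of the axial skeleton, had 749, 509, 818 and 793 TPM, *SOX9*, the main regulator of cartilage, 305, 313, 333 and 408 TPM, and *PAX1*, a sclerotome gene needed for disc formation, 222, 156, 203 and 190 TPM. All libraries held each of them. *EGR1*, which overlaps another gene, averaged 342 ± 135 TPM and *NFIX* 248 ± 24.0 TPM. Of 39 HOX genes, 30 reached 1 TPM in every library, and the highest were *HOXC10*, *HOXC12* and *HOXC13*, genes of the posterior end of their cluster, with 80.9 ± 14.96, 54.9 ± 9.06 and 48.9 ± 14.9 TPM.

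Defining markers of cartilage and of annulus or tendon were found in the free IVDs, whereas *T* and *SHH* of the notochord were near 0. *COL2A1*, *ACAN* and *SOX9* were high in every library, and *MATN1*, matrilin 1 of cartilage, which overlaps another gene, had 61.8, 0.918, 59.1 and 94.5 CPM, nearly at 0 in replicate 2. *MKX* and *SCX*, transcription factors of tendon and annulus, had 33.5 ± 7.76 and 45.5 ± 11.5 TPM, and *TNMD* (tenomodulin) 26.6 ± 13.3 TPM. In the notochord list, *T* (brachyury) had 16, 11, 4 and 2 counts and *SHH* 0, 0, 1 and 2 counts, and *KRT19* had 65 of its 67 counts in replicate 2. *NOG* (noggin) was at 25.1 ± 2.75 TPM and *CD24* at 17.5 ± 14.3 TPM, and the list was led by *CAV1* (caveolin 1), which many cell types express, with 241 ± 45.0 TPM.

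Markers of other tissues ranged widely. The 15 erythroid genes held 4.98, 4.23, 1.45 and 2.18% of TPM and the 24 genes of skeletal muscle 0.103, 0.101, 0.0232 and 0.134%. Endothelium held 0.0109, 0.0114, 0.0425 and 0.0342%, heterophils and their precursors 0.159, 0.0832, 0.0902 and 0.0464%, and macrophages 0.0163, 0.0184, 0.0383 and 0.0182%. Without *MMP9*, the heterophil list held 0.158, 0.0819, 0.0400 and 0.0213%. *CD74* made up 75.4% of the summed mean TPM of the macrophage list. T cells held 0.00246% on average and B cells 0.00220%, and epidermis less than these. *ADIPOQ* (adiponectin), a marker of fat, had 201, 125, 302 and 315 TPM, whereas *PLIN1*, which coats fat droplets, had 2.50 ± 3.58 TPM. *CKM*, a marker of muscle, was not analysed here.

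Most genes were expressed evenly in the 4 free IVD libraries. Among 9649 genes with a mean CPM of 5 or more, the SD of log2 CPM over the libraries had a median of 0.19, with quartiles at 0.12 and 0.32, and 5060 genes (52.4%) had an SD under 0.2. In 8754 of them the coefficient of variation of CPM was larger than counting error alone gives. An SD over 1 was found in 323 genes, 3.35% of the genes compared. This share is the background for the counts of an SD over 1 below, in which lists are described by the members at a mean CPM of 5 or more. For counts of genes highest or lowest in a library, the background is the 8844 such genes of chromosomes 1 to 28. Of these, 2322, 2482, 2367 and 1673 were highest in replicates 1 to 4. Lowest there were 1519, 2755, 2510 and 2060.

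**Figure D3:**
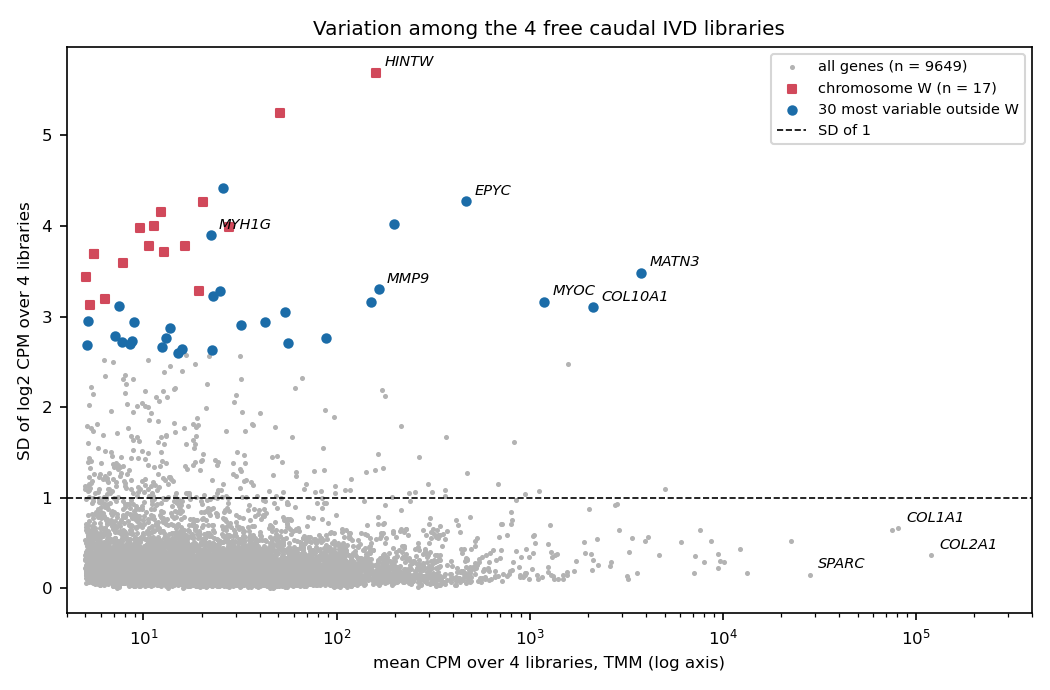
SD of log2 CPM over the 4 libraries against mean CPM (log axis) for 9649 genes (gray), with the 17 genes of chromosome W in red squares, the 30 most variable genes outside W in blue, and a dashed line at an SD of 1. Most genes lie under the line, *HINTW* is highest with an SD of 5.69, and *EPYC*, *MATN3*, *MYOC* and *COL10A1* combine a high level with a large SD.

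Among the lists, those of protein synthesis varied least. The median SD of log2 CPM was 0.14 in ribosomal proteins and 0.12 in the secretory pathway, beside 0.19 over all genes compared. It was 0.17 in nuclear oxidative phosphorylation, and at 0.19 glycolysis was level with all genes. Genes of lipid handling (0.22) and of the hypoxia response (0.35) lay above. None of the 74 ribosomal, 49 secretory and 21 glycolytic genes passed an SD of 1, beside 3.35% of all genes compared. At that share, lists of this size hold few such genes. Of 71 nuclear genes of oxidative phosphorylation, 1 passed it, *ATP5A1W* of chromosome W (SD of 3.78). The small differences that remained in ribosomal proteins were shared, since 66 of the 74 genes were highest in replicate 2. Of 22 genes of the hypoxia list, 15 were likewise highest in replicate 2, and 2 had an SD over 1. In these 2 genes, *STC2* and *CA9*, the SD was 1.09 and 1.06.

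The 5 genes with the smallest SD, 0.01 each, were *POMGNT1*, *ATXN7L2*, *MKRN1*, *HSD17B12* and *DCTN6*. Their CV of 0.0063 to 0.0073 lay below the 0.038 to 0.095 that counting error alone gives, so their closeness does not set them apart from other even genes. *MKRN1*, a ubiquitin ligase, had 46.9, 46.6, 46.7 and 47.3 CPM, and *HSD17B12*, an enzyme of fatty acid elongation, 45.1, 44.8, 45.1 and 45.5 CPM. *POMGNT1*, a glycosyltransferase of dystroglycan, had 13.3 CPM on average, *DCTN6*, a dynactin subunit that overlaps a microRNA gene, 16.04 CPM and *ATXN7L2* 7.32 CPM.

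Matrix, by contrast, held many of the variable genes. An SD over 1 was found in 33 of 173 matrix genes (19.1%), in 15 of 177 signaling genes (8.47%) and in 5 of 161 metabolic genes (3.11%), beside 3.35% of all genes compared. Among the collagens it was 11 of 29. Of the 323 genes, 98 stand in any list.

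Of the 30 most variable genes, 17 were on chromosome W, the sex chromosome that hens carry and roosters do not, and these were all the W genes at a mean CPM of 5 or more. *HINTW*, which overlaps another gene, had 302, 1.20, 340 and 0 CPM in replicates 1 to 4 (SD of log2 CPM of 5.69). All 17 genes were higher in replicates 1 and 3 than in replicates 2 and 4. They lay between 9.33 and 340 CPM in replicates 1 and 3 and at 1.20 CPM or less in replicates 2 and 4. Each of them therefore passed the CPM minimum only through replicates 1 and 3, so their shared order follows in part from the minimum.

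The other W genes were *LOC112530494*, *TERAL2*, *SPIN1W*, *SMAD2W*, *HNRNPKL*, *CHDB1*, *UBE2R2L*, *ATP5A1W*, *NIPBLL*, *LOC112530493*, *LOC101752211*, *UBAP2*, *MIER3L*, *LOC107049046*, *LOC107049174* and *LOC425347*, several of which are copies of genes on Z. Summed over all 73 genes of chromosome W, with no CPM minimum, CPM came to 815, 9.75, 881 and 8.90 in replicates 1 to 4. *LOC100859072*, a noncoding RNA gene placed on Z, had the same order, with 53.3, 0.495, 49.7 and 0 CPM. For the 420 genes of Z at a mean CPM of 5 or more, the median log2 deviation from the gene mean was -0.21, 0.22, -0.28 and 0.28, the opposite order, and for the genes of chromosomes 1 to 28 it was 0.03 or less in size. The part of the sex chromosomes in other genes was not tested.

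Outside W, 306 genes had an SD over 1, and the most frequent order set replicate 3 against replicate 2. Of these genes, 167 were highest in replicate 3, 148 were lowest in replicate 2, and 119 were both. Some of the 167, such as *ACP5* and *FCGBPL*, passed the CPM minimum only through replicate 3. The first principal component of the log2 CPM values held 57.1% of the variance, with scores of 43.4 for replicate 2 and -38.6 for replicate 3 and with replicates 1 and 4 at -0.440 and -4.39. Across genes, log2 CPM correlated at 0.87 between replicates 2 and 3 and at 0.93 to 0.94 in the other 5 pairs (9649 genes, which are not independent replicates).

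Several of these genes belong to cartilage and the growth plate and were far lower in replicate 2. *EPYC* (epiphycan, a small proteoglycan of growth cartilage; chromosome 1 of GRCg6a, from 43956043 to 43978617) had 228, 1.48, 981 and 663 CPM. *MATN3* (matrilin 3, which links cartilage collagens; chromosome 3, from 101394465 to 101409742) had 2664, 39.6, 7805 and 4644 CPM. *CNMD* had 1258, 68.5, 2689 and 2322 CPM. In each of them replicate 2 was far below the other 3 libraries and replicate 3 was highest. Without replicate 2, the SD of log2 CPM fell to 1.09 for *EPYC*, against 4.27 with all libraries, and to 0.77 for *MATN3*, against 3.48.

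Of 8 genes of the hypertrophic chondrocyte list, 7 passed a mean CPM of 5, and these 7 had an SD over 1 and were highest in replicate 3 and lowest in replicate 2. *COL10A1*, the type X collagen chain that defines these cells (chromosome 3, from 64020126 to 64031469), had 1268, 36.9, 5954 and 1282 CPM, and an SD of 3.10 (1.28 without replicate 2). *IHH* (Indian hedgehog), which paces chondrocyte growth, had 14.1, 0.212, 62.3 and 23.4 CPM. *SPP1* (osteopontin) had 597, 111, 829 and 358 CPM. *ALPL*, the phosphatase of mineralizing tissue, and *RUNX2*, a transcription factor of hypertrophy and bone that overlaps another gene, had 214 and 62.7 CPM in replicate 3, and 8.05 and 1.62 CPM in replicate 2.

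The chondrocyte list, in which hypertrophic genes are not counted, was less uneven. Of its 13 genes, 5 had an SD over 1, 8 were highest in replicate 3 and 11 were lowest in replicate 2. Its members *COL2A1*, *ACAN* and *SOX9* stayed high in replicate 2. *COL2A1* had 80277, 138117, 133108 and 126558 CPM in replicates 1 to 4 and was highest in replicate 2, unlike most of the list. *SOX9* had 174, 204, 185 and 247 CPM, highest in replicate 4. *ACAN* was lowest in replicate 2, with 7617 CPM. *MATN1*, also a defining marker of cartilage, was nearly at 0 in replicate 2, with 0.918 CPM. *CHAD*, with 11831, 6401, 10218 and 9589 CPM, was lowest in replicate 2 by a smaller margin.

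Further genes of the 30 most variable outside W were lowest in replicate 2 and have other or less settled roles in cartilage. *PPP1R17*, an inhibitor of protein phosphatases, had 177, 0.848, 394 and 218 CPM, and *MYOC*, myocilin, a secreted glycoprotein known from the eye, 1209, 19.4, 2421 and 1118 CPM. *SMPD3*, a neutral sphingomyelinase whose loss disturbs mineralization in mice, had 101, 2.33, 367 and 134 CPM. *EXTL1*, a glycosyltransferase related to the enzymes of heparan sulfate synthesis, had 37.2, 1.62, 122 and 62.7 CPM. *R3HDML*, *C1QTNF4*, *HTR7*, *CD24*, *LOC107051722* and *LOC419080* were also lowest in replicate 2. *ADRA2C*, an adrenergic receptor, was at 0.0706 and 0.336 CPM in replicates 2 and 4 and at 7.77 and 12.5 CPM in replicates 1 and 3. It passed the CPM minimum only through replicates 1 and 3, so its order follows in part from the minimum.

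**Figure D4:**
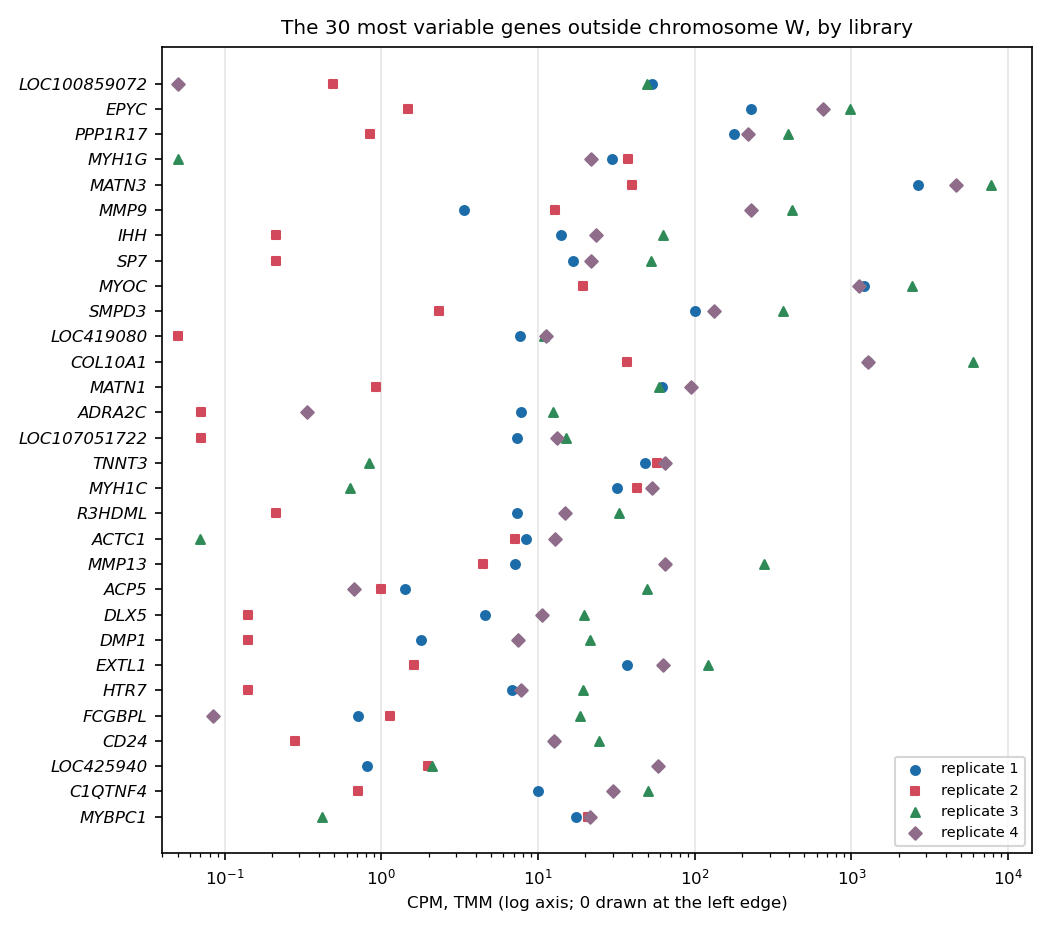
CPM (log axis, with 0 drawn at the left edge) of the 30 most variable genes outside chromosome W, with a point for each of replicates 1 to 4. Replicate 2 (red squares) is lowest in 20 of the 30 genes and replicate 3 (green triangles) is highest in 21, while the muscle genes *MYH1G*, *TNNT3*, *MYH1C*, *ACTC1* and *MYBPC1* are lowest in replicate 3. Some of the 21, such as *ACP5*, *FCGBPL* and *DMP1*, passed the CPM minimum only through replicate 3, so their place follows from it.

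Some genes of bone, *SP7* and *DLX5* among them, followed the same order at lower levels. Of the 12 genes of the osteoblast and osteocyte list, 5 passed a mean CPM of 5, and these were highest in replicate 3 and lowest in replicate 2. The minimum is on the mean, so low genes of the list, such as *DMP1* and *IBSP*, passed it only through replicate 3. Their place among the genes highest in replicate 3 follows from the minimum. *SP7*, a transcription factor of osteoblasts, had 16.6, 0.212, 52.9 and 21.9 CPM, *DLX5*, a homeobox gene of osteoblasts, 4.57, 0.141, 19.8 and 10.6 CPM and *DMP1*, a matrix protein of osteocytes, 1.78, 0.141, 21.5 and 7.39 CPM. *IBSP*, bone sialoprotein, had 2.95, 0.353, 32.2 and 6.72 CPM. *BGLAP* (osteocalcin), under the CPM minimum, did not share the order and was highest in replicate 1, with 5.74, 2.26, 3.48 and 3.78 CPM.

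Of 25 genes of the matrix protease and inhibitor list, 6 had an SD over 1, 11 were highest in replicate 3 and 6 were lowest there. The count of genes lowest there was near the share over the genes of chromosomes 1 to 28. *MMP9*, a gelatinase of osteoclasts and heterophils, had 3.35, 12.8, 417 and 228 CPM, and *MMP13*, a collagenase of hypertrophic cartilage, 7.16, 4.45, 277 and 64.8 CPM. Of the 10 genes of the osteoclast list, 6 passed a mean CPM of 5. Of these 6, 5 were highest in replicate 3 and 1 had an SD over 1. This was *ACP5*, the acid phosphatase of osteoclasts, with 1.42, 0.989, 49.4 and 0.672 CPM. *ACP5* was therefore high in replicate 3 alone, and its SD was 0.48 without that library. It passed the CPM minimum only through replicate 3, so its place among the genes highest there follows from the minimum. *CTSK*, cathepsin K, had 219, 219, 399 and 229 CPM. The osteoclast list held 0.0577, 0.0548, 0.127 and 0.0610% of TPM, most of it from *CTSK*. Without *CTSK* it held 0.00866, 0.0118, 0.0349 and 0.0125%.

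*COL1A1*, *COL1A2* and *ELN* ran the other way. *COL1A1* had 61637, 134757, 45511 and 83452 CPM and *COL1A2* 70475, 111652, 38404 and 82145 CPM, highest in replicate 2 and lowest in replicate 3. *ELN* had 514, 1183, 379 and 752 CPM, in the same order. The annulus and tendon list did not share this order as a whole. Of its 13 genes at a mean CPM of 5 or more, 5 were highest in replicate 2 and 5 in replicate 4. Lowest in replicate 3 were 7 of the 13. *SCX* was highest in replicate 2 and lowest in replicate 3. *TNMD*, with 13.4, 3.11, 12.6 and 15.1 CPM, was lowest in replicate 2. *MKX*, with 64.7, 43.4, 43.1 and 51.5 CPM, was highest in replicate 1. Of 14 genes of elastic fibers and microfibrils, 9 were highest in replicate 2 and 8 were lowest in replicate 3. *COL8A1*, a short-chain collagen that overlaps another gene, had 677, 2637, 505 and 646 CPM and was high in replicate 2.

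Most skeletal muscle genes that passed the CPM minimum were lowest in replicate 3. Of the 24 genes of this list, 10 passed a mean CPM of 5. Of these 10, 7 had an SD over 1 and 9 were lowest in replicate 3. *ACTA1* (skeletal actin) had 202, 213, 10.7 and 261 CPM, *TNNT3* (fast troponin T) 48.5, 57.3, 0.836 and 64.4 CPM and *MYL1* (a myosin light chain) 82.3, 81.3, 3.34 and 97.3 CPM. *MYH1G*, a fast myosin heavy chain that overlaps other genes, had 29.7, 37.4, 0 and 21.9 CPM, and *MYH1C* 31.8, 42.6, 0.627 and 53.2 CPM. Replicates 1, 2 and 4 were close to each other in these genes, and without replicate 3 the SD was 0.21 for *TNNT3* and 0.38 for *MYH1G*.

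Endothelial genes were mostly highest in replicate 3. Of 13 endothelial genes, 10 had an SD over 1, 11 were highest in replicate 3, and each was lowest in replicate 1 or 2. *PECAM1*, which overlaps another gene, had 45.1, 36.0, 165 and 146 CPM and *CDH5* (VE-cadherin) 5.69, 8.12, 37.1 and 27.97 CPM. Of 7 genes of the smooth muscle and pericyte list, 4 had an SD over 1, 4 were highest in replicate 3, 2 in replicate 4 and 1 in replicate 2. *RGS5*, a marker of pericytes, had 28.1, 23.5, 341 and 317 CPM and *ACTA2*, smooth muscle actin, 4.88, 15.8, 111 and 111 CPM. *COL4A1*, a chain of the basement membrane around vessels, had 35.7, 59.6, 377 and 390 CPM.

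Hemoglobin genes were higher in replicates 1 and 2 than in replicates 3 and 4. *HBA1* had 4157, 3918, 1079 and 1927 CPM and *HBBA* 4209, 4104, 1119 and 1864 CPM, lowest in replicate 3. The ratio of *HBA1* to *HBBA* TPM stayed between 1.06 and 1.15. Of 11 genes of heterophils and their precursors, 10 were highest in replicate 1 and 8 lowest in replicate 4, the exception at the high end being *MMP9*. *LECT2*, a leukocyte chemotactic factor that overlaps another gene, had 124, 73.5, 29.1 and 18.6 CPM and *AvBD2*, a defensin, 58.5, 35.3, 14.2 and 8.31 CPM. *CD74*, the invariant chain of antigen-presenting cells, had 72.0, 92.6, 180 and 92.5 CPM.

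The share of each cell type in a library, and its part in the values of the matrix genes, was not tested.

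**Figure D5:**
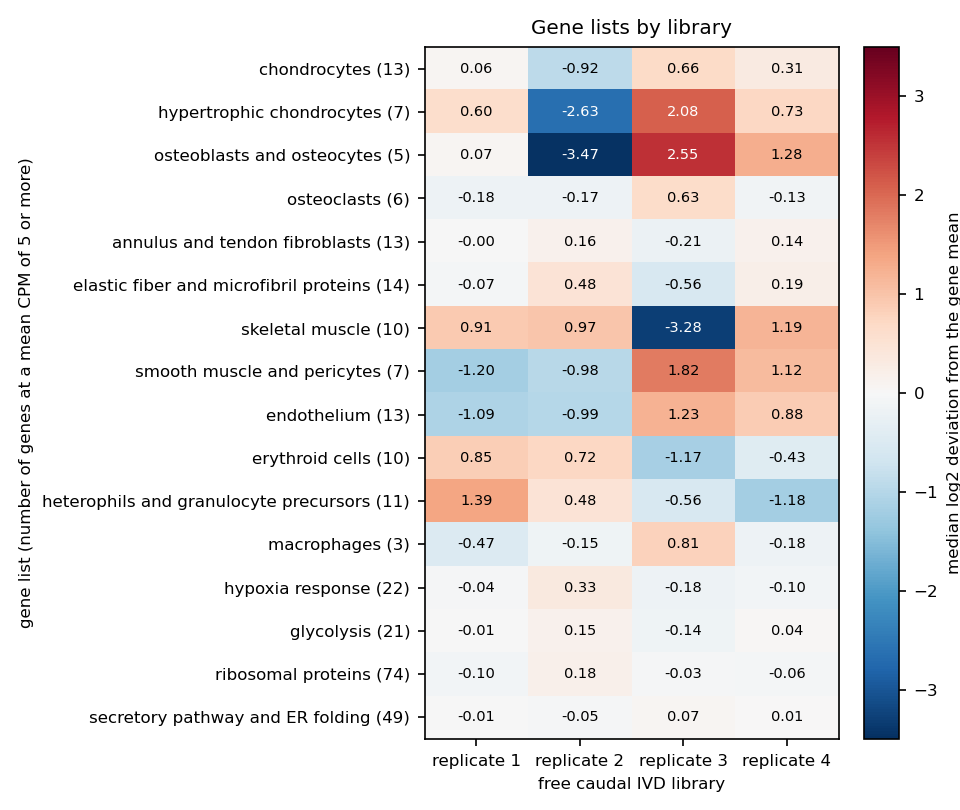
Median log2 deviation of the genes of each list from their own mean over the 4 libraries, with the number of genes in brackets, red above and blue below the mean. The 5 of 12 osteoblast and osteocyte genes that passed a mean CPM of 5 are at 2.55 in replicate 3 and -3.47 in replicate 2. Some of these 5, such as *DMP1* and *IBSP*, passed it only through replicate 3, so these medians rest in part on that minimum. Skeletal muscle genes are at -3.28 in replicate 3, and ribosomal and secretory genes stay within 0.18 of 0.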

How the data were processed

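The series holds polyA-selected RNAseq libraries of free and fusing caudal IVDs, and the 4 free ones were used. The authors aligned unstranded read pairs to GRCg6a with STAR and counted them per gene with featureCounts, without regard to strand, which leaves the counts of overlapping genes uncertain. They deposited whole-number counts for 24154 genes, with gene positions and lengths, and without normalization. A second deposited table, of their own DESeq2 comparison, holds fold changes (log2) with their p-values, beside mean counts after scaling, and was not used. TPM was computed from counts and length over all genes. CPM used TMM factors of edgeR 4.0.16 (R 4.3.3), and log2 CPM a prior count of 2. Variation is the SD of log2 CPM over the 4 libraries for genes at a mean CPM of 5 or more. The depth was 12356953 to 18417470 counts per library. Chromosome names were given where gene symbols matched those of RefSeq's GRCg7b table, and positions are those of GRCg6a.

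The gene lists and the libraries described were chosen with earlier results of these data known. Of 977 names in the lists, 894 matched as written, 5 after a change of case and 12 by another name, 66 did not, and 215 genes were added by a name pattern. Named are the 30 genes of highest mean TPM, the 30 of largest SD, the 5 of smallest SD, up to 6 of the highest members of a list and the markers that define a cell type. The 30 most variable genes outside W and *APOA1*, *COL8A1*, *COL4A1*, *COL5A1*, *VCAN*, *RUNX2*, *CTSK*, *CD74*, *LUM* and *PRELP* where not so named were chosen after their values were seen. The alternatives were shares of counts, totals without mitochondrial or overlapping genes, other scaling (DESeq2 1.42.0 size factors, upper quartile, library totals), prior counts and CPM minimums, thinned counts, ranking by CV, and each library left out.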

Additional observations from a re-analysis of the deposited data

Results flagged for a closer look

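Of 133 values tried (the 30 highest genes, the most variable genes and the list shares), 10 had a library far from the other 3. Chance gives about 1 in 20 for independent values not chosen by their spread. The 133 values include genes chosen for a large SD, such as *ACP5*, *FCGBPL* and *LOC425940*, and lists that share genes. The share found can therefore not be set against that rate. *COL6A2* was at 2493 TPM in replicate 3, below the other libraries. *ACP5*, with 49.37 CPM, and *FCGBPL*, a gene with no role given in the table, with 18.45 CPM, were high in replicate 3. *LOC425940* was high in replicate 4, at 58.54 CPM. Each of *ACP5*, *FCGBPL* and *LOC425940* passed the CPM minimum only through the library where it was high. In shares of TPM, replicate 2 stood apart in glycosaminoglycan synthesis (0.2983%), the hypoxia response (0.3926%), hedgehog genes (0.03977%) and epidermis (0.0004621%). The epidermis share rests on few counts, since none of its genes passed a mean CPM of 5. Of its 8 genes with a count, 6 stayed under 1 TPM in every library. Replicate 3 stood apart in osteoclast genes (0.1272%) and macrophage genes (0.03826%). *CTSK* alone was 77.4% of the summed mean TPM of the osteoclast list, and *CD74* 75.4% of that of the macrophage list. The cause of these differences was not tested.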

How the results depend on the processing

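Of 113 summary values under another setting, 93 moved by less than the SD between libraries (for counts of genes, by less than 1.5 times) and 20 moved further. As shares of counts in place of TPM, which favors long genes, matrix genes held 50.01%, collagens 34.7%, ribosomal proteins 2.36%, glycolysis 0.741%, nuclear oxidative phosphorylation 0.195%, metabolic genes 1.4996%, signaling genes 1.94%, hemoglobins 0.638% and the 10 highest genes 37.8%. With overlapping genes left out of the total, matrix genes held 42.2%, ribosomal proteins 10.1%, glycolysis 1.03% and the 10 highest genes 35.5%. Without mitochondrial genes, metabolic genes held 2.29%. An SD over 1 was found in 713 genes at a minimum mean CPM of 1, in 206 at 10 and in 1186 without a minimum. Of the 30 most variable genes, 15 were shared when ranked by CV and 18 (without replicate 2) to 26 when a library was left out. Without W genes, an alternative chosen after seeing the data, 13 were shared. That value was fixed in advance, since 17 of the 30 genes are on W. Of the SDs of the variable genes, 653 moved by less than the same limit and 26 moved further, mostly without replicate 2 or 3. Depth limits genes of few counts, such as *T* and *SHH*. No paired analysis was possible because a single group is described.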
